A study of Mus musculus with 19 samples.

Results

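miR-342 is a microRNA (miRNA) gene whose hairpin gives 2 mature products, mmu-miR-342-5p from its 5′ arm and mmu-miR-342-3p from its 3′ arm. Both arms were selected on these data, because the miRNA separated a high-active and a low-active mouse strain in every tissue measured. They are 2 of the 1136 miRNAs on the array (1079 of them named as mouse miRNAs), and 6 probes read them, 2 for the 3p arm and 4 for the 5p arm. The strain differences given below are therefore a description with no test, while differences between tissues and between arms were not used in the choice.

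The study asked which miRNAs differ between inbred strains that run much or little on a wheel. High-active mice were C57L/J and low-active mice were C3H/HeJ, both untreated males that were 8 weeks old when they were given a locked running wheel for 1 week, so neither strain had run. High-active mice gave 4 arrays of the nucleus accumbens, a striatal region of the brain's reward circuit, 4 of the soleus, a slow postural muscle, and 2 of the extensor digitorum longus (EDL), a fast muscle. Low-active mice gave 3, 2 and 4 arrays of the same tissues, and the 19 arrays came from 8 mice known by number, after the authors had picked RNA by its integrity and set aside arrays of poor signal. Each group is 1 inbred strain, so strain and any other feature in which C57L/J and C3H/HeJ differ cannot be told apart.

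A miRNA gene is transcribed as a long primary RNA, cut to a hairpin in the nucleus and cut again in the cytoplasm to a short duplex. One strand of the duplex is usually kept by Argonaute, and its bases 2 to 8, the seed, choose the messenger RNAs to be repressed, while the other strand is mostly degraded. Mir342 lies inside Evl, a gene for an Ena/VASP protein that helps actin filaments to grow at the cell edge. It is well known from blood cells, lymphocytes among them, and it is also expressed in brain.

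The sequences are shown because the comparisons below turn on the arms being separate molecules. All are from RefSeq on build GRCm38.p6. The hairpin lies on the plus strand at chr12:108658620-108658718, with both mature arms in capitals.

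Mir342 hairpin: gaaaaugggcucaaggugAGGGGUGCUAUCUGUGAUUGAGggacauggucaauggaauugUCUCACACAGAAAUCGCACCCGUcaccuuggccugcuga

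The mature arms lie at chr12:108658638-108658659 for the 5p arm and chr12:108658680-108658702 for the 3p arm. Seeds are in capitals.

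mmu-miR-342-5p: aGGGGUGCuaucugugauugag
mmu-miR-342-3p: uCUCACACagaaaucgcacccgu

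The 5p arm has 22 bases and the 3p arm 23, with a GC content of 50% and 52.2%. Bases 3 to 8 of the 5p arm are the reverse complement of bases 16 to 21 of the 3p arm, a stretch of 6 bases that face each other in the stem. Their seeds differ, and no other of the 1679 mature mouse miRNAs in the reference table has either seed, so no relative with the same seed could be compared.

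The arrays differed in brightness. The 75th percentile of the probes measured on all arrays of a tissue lay between 480 and 1357 intensity units, and 242 to 392 miRNAs were detected per array, a probe being detected when most of its spots stood well above the local background. The dimmest array was that of low-active EDL mouse 195. In the soleus both low-active arrays, at 1206 and 1357, were brighter than every high-active array, at 588 to 1001. Of the markers, all 7 neuronal miRNAs were detected on every nucleus accumbens array, all 4 skeletal muscle miRNAs on every soleus and EDL array, and both slow-fibre miRNAs on every soleus array. Markers of the other tissue were also seen: 3 of 4 skeletal muscle miRNAs were detected on every nucleus accumbens array, with summed log2 signals of 8.89 to 9.27 on high-active and 8.87 to 11.18 on low-active arrays, and 2 of 7 neuronal miRNAs on every soleus array.

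miR-342-3p was detected on all arrays but 1, and it stood higher in the high-active strain in all 3 tissues. In the nucleus accumbens its brightest probe, A_54_P2574, had a mean spot intensity of 4446, 3097, 3370 and 2891 in high-active mice 223, 224, 225 and 227, against 757, 451 and 615 in low-active mice 194, 195 and 197. The dimmest high-active array was thus well above the brightest low-active one, before any scaling. The SD over the 18 to 20 spots of this probe was 362 on the brightest array and 41.2 on the dimmest one of the nucleus accumbens.

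In the soleus the same probe read 166, 356, 331 and 313 in high-active mice 223, 224, 225 and 227, against 87.8 and 90.4 in low-active mice 194 and 195. In the EDL it read 314 and 242 in high-active mice 225 and 227, against 57.0, 27.3, 75.1 and 65.5 in low-active mice 194, 195, 196 and 197. The strains did not overlap in either muscle. On the array of low-active EDL mouse 195, 36.8% of the probe's spots were well above background, so miR-342-3p was not detected there.

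After scaling the arrays of a tissue to a common 75th percentile, the log2 signal of miR-342-3p in the nucleus accumbens was 11.57 ± 0.20 in high-active mice (SD, n = 4) and 9.43 ± 0.15 in low-active mice (SD, n = 3). The difference of 2.13 ± 0.14 (SE) is a 4.39-fold higher level in high-active mice. In the soleus the log2 signal was 8.36 ± 0.25 in high-active mice (SD, n = 4) and 6.00 ± 0.09 in low-active mice (SD, n = 2), a difference of 2.36 ± 0.19 (SE) or 5.14-fold. In the EDL it was 8.07 ± 0.18 in high-active mice (SD, n = 2) and 5.73 ± 0.25 in low-active mice (SD, n = 4), a difference of 2.34 ± 0.20 (SE) or 5.07-fold.

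These 3 differences were close to each other although the level itself varied. The difference between strains was smaller in the nucleus accumbens than in the soleus by 0.20 on the log2 scale (estimate -0.20, SE 0.25), smaller than in the EDL by 0.26 (estimate -0.26, SE 0.25), and smaller in the soleus than in the EDL by 0.05 (estimate -0.05, SE 0.27), in 1 model over 19 arrays. Each of these estimates is about as large as its standard error or smaller. They use 19 arrays scaled together. With each tissue scaled alone, the difference was slightly larger in the soleus than in the EDL, 2.36 against 2.34. The other probe of the 3p arm, A_54_P2573, gave strain differences of 2.20, 2.37 and 2.42 in the nucleus accumbens, soleus and EDL. It was dimmer by a factor of 1.14 to 1.44 on every array. Background correction with normexp made the differences in muscle smaller, 1.62 in the soleus and 1.26 in the EDL, and without scaling that of the soleus was 1.65.

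**Figure D1:**
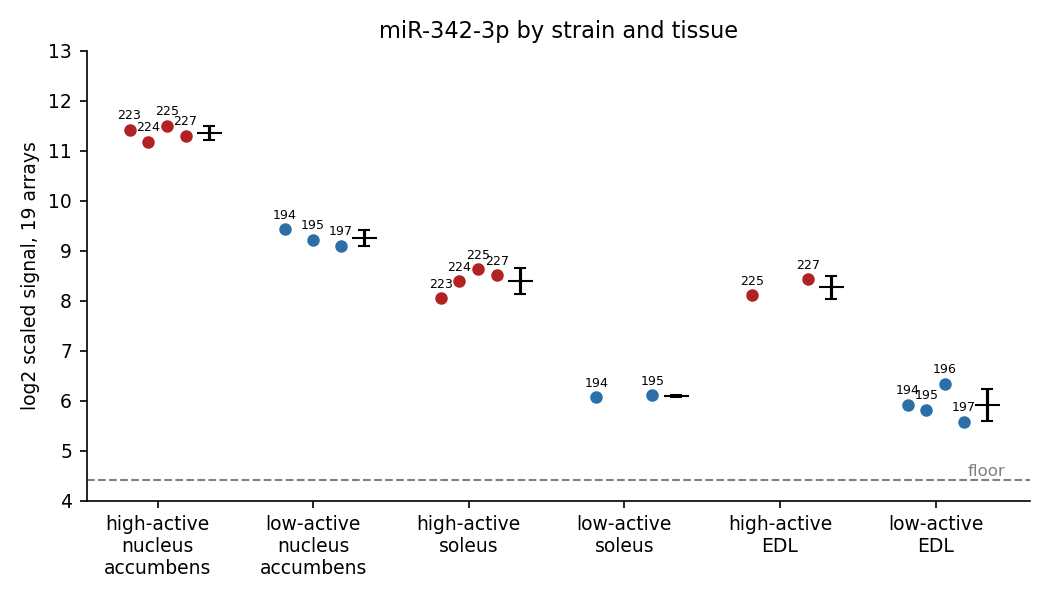
Log2 signal of miR-342-3p on each of 19 arrays scaled together, labelled by mouse number, with the group mean ± SD at the right of each group and the floor as a dashed line. The strains do not overlap in any tissue, and both strains are highest in the nucleus accumbens.

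Calls over all miRNAs give a background for these differences. Between strains, 27 of 391 miRNAs tested (6.91%) passed limma's test in the nucleus accumbens (adjusted p under 0.05), 4 of 342 (1.17%) in the soleus and 1 of 330 (0.303%) in the EDL. miR-342-3p was among them each time, but it was selected on this contrast, so its own calls are no test of it. Without scaling the EDL had 2 calls, 0 of them higher in high-active mice, so miR-342-3p did not pass there although its difference was 2.39. Of the miRNAs tested, the high-active arrays all lay above the low-active ones for 15 in the nucleus accumbens (3.84%), 59 in the soleus (17.3%) and 30 in the EDL (9.09%). Across the 258 miRNAs tested in all 3 tissues, 2 did so in each of them (0.775%), miR-342-3p and miR-30c-5p, a member of the miR-30 family that is abundant in muscle and brain. miR-30c-5p was higher in high-active mice by 0.30 ± 0.12 (SE), 0.52 ± 0.15 and 0.61 ± 0.22 on the log2 scale in the nucleus accumbens, soleus and EDL, with adjusted p of 0.217, 0.153 and 0.642 from limma. In the other direction, 6 of the 258 (2.33%) lay lower in high-active mice on every array of each tissue, miR-146b-5p, miR-331-3p, miR-341-3p, miR-467b-5p, miR-500-3p and miR-669f-3p.

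By the slide barcode, arrays were hybridised on 3 slides that held both strains and several tissues. Within slides that held both strains of a tissue, 1 to 3 high-active arrays stood against 1 low-active array. There miR-342-3p differed by 2.23 and 2.32 in the nucleus accumbens. It differed by 2.39 and 2.58 in the soleus and by 2.41 and 2.50 in the EDL. The strains overlap in no tissue, so each of these differences had to be positive, and an effect of slide was not tested.

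Cell types that carry miR-342 were looked at through the markers of leukocytes. Of 6 leukocyte miRNAs, 4 in the nucleus accumbens, 5 in the soleus and 5 in the EDL were tested, and none passed limma's strain test in any tissue (0, 1 and 0 at an unadjusted p under 0.05), with median differences of 0.06, 0.19 and 0.36. Over all miRNAs 27 of 391, 4 of 342 and 1 of 330 passed (77, 55 and 24 unadjusted), so nothing is read from the counts of so short a list. The summed log2 signal of the leukocyte miRNAs ranged over 10.21 to 10.69 on high-active and 10.15 to 10.42 on low-active arrays of the nucleus accumbens. In the soleus the ranges were 10.93 to 11.13 on high-active and 10.70 to 10.71 on low-active arrays, and in the EDL 10.70 to 10.75 on high-active and 10.39 to 10.52 on low-active arrays, so these sums did not overlap in muscle, although members of the list differed in both directions. Of all single miRNAs tested, 17.3% in the soleus and 9.09% in the EDL lay higher on every high-active array. miR-223-3p had a difference of -0.10 ± 0.20, -0.01 ± 0.17 and 0.38 ± 0.20 (SE) in the nucleus accumbens, soleus and EDL. miR-155-5p had 0.38 ± 0.16 in the soleus and -0.06 ± 0.21 in the EDL. miR-150-5p, a miRNA of mature lymphocytes, had a difference of 0.22 ± 0.17, 0.73 ± 0.17 and 0.36 ± 0.24 (SE) in the nucleus accumbens, soleus and EDL (adjusted p of 0.483, 0.1 and 0.724 from limma). miR-146a-5p, an inhibitor of inflammatory signalling, had 0.25 ± 0.16, -0.19 ± 0.12 and -0.41 ± 0.23 (adjusted p of 0.431, 0.475 and 0.704), and miR-142-3p, found throughout the blood lineages, had -0.42 ± 0.30, 0.19 ± 0.55 and 0.41 ± 0.37 (adjusted p of 0.446, 0.923 and 0.791). Among markers of other cells, the oligodendrocyte miRNA miR-338-3p was higher in the high-active nucleus accumbens by 0.64 ± 0.14 (adjusted p = 0.0369 from limma), 1 of 3 miRNAs of its list to pass, with summed log2 signals of 11.63 to 12.00 on high-active and 11.02 to 11.73 on low-active arrays. The others of that list differed by 0.05 ± 0.14 (miR-219-2-3p) and 0.06 ± 0.51 (miR-219-5p) there. miR-338-3p was also detected on every soleus and EDL array. In the soleus the sum of both slow-fibre miRNAs ranged over 10.72 to 11.27 on high-active and 10.15 to 10.46 on low-active arrays, and neither passed (adjusted p of 0.0797 for miR-208b-3p, with a difference of 1.35 ± 0.27, and 0.215 for miR-499-5p, with 0.55 ± 0.19). In the nucleus accumbens, the summed log2 signal of 5 epithelial miRNAs ranged over 7.68 to 14.4 on high-active and 6.92 to 12.6 on low-active arrays, and that of 3 red cell miRNAs over 11.0 to 12.3 on high-active and 12.1 to 13.7 on low-active arrays. The part of these cells in the miR-342 values was not tested, and in bulk tissue fewer cells of a type and less RNA per cell cannot be told apart.

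Between tissues, miR-342-3p was much more abundant in the nucleus accumbens than in either muscle. Over 19 arrays scaled together, its log2 signal averaged 11.35 ± 0.14 in the high-active nucleus accumbens, 9.25 ± 0.17 in the low-active nucleus accumbens, 8.40 ± 0.25 in the high-active soleus, 8.27 ± 0.23 in the high-active EDL, 6.09 ± 0.02 in the low-active soleus and 5.91 ± 0.32 in the low-active EDL (SD, n = 4, 3, 4, 2, 2 and 4). Neighbours in this order did not overlap except the soleus and the EDL of the same strain. The high-active soleus ranged over 8.05 to 8.63 and the high-active EDL over 8.11 to 8.43, and the low-active soleus over 6.07 to 6.11 and the low-active EDL over 5.58 to 6.34. Both muscles of high-active mice lay below the nucleus accumbens of low-active mice, whose lowest array stood at 9.10.

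Averaged over both strains, miR-342-3p was higher in the nucleus accumbens than in the soleus by 3.06 ± 0.13 (SE), an 8.32-fold difference (95% interval of the log2 difference 2.79 to 3.33, adjusted p = 1.54e-12 from limma over 484 miRNAs). It was higher in the nucleus accumbens than in the EDL by 3.21 ± 0.13 (SE), or 9.25-fold (2.94 to 3.48, adjusted p = 8.47e-13). Such differences were common between brain and muscle, since 229 of 484 miRNAs (47.3%) were higher in the nucleus accumbens than in the soleus and likewise 229 (47.3%) than in the EDL at the same threshold. miR-342-3p ranked 63rd of 484 by size of the rise over the soleus and 54th over the EDL.

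Between the muscles the difference was 0.15 ± 0.13 (SE), the soleus being higher than the EDL, and it did not pass the test (95% interval -0.14 to 0.44, adjusted p = 0.663 from limma). The interval reaches 0.44 log2 units in favour of the soleus, far below the differences from the nucleus accumbens. In all, 34 of 484 miRNAs (7.02%) were higher in the soleus than in the EDL.

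The tissues of the same mouse can be set side by side. In high-active mice the nucleus accumbens exceeded the soleus by 3.38, 2.79, 2.87 and 2.79 in mice 223, 224, 225 and 227, and it exceeded the EDL by 3.39 and 2.87 in mice 225 and 227. In low-active mice the nucleus accumbens exceeded the soleus by 3.35 and 3.11 in mice 194 and 195, and it exceeded the EDL by 3.51, 3.40 and 3.52 in mice 194, 195 and 197. Every pair ran the same way. In the 4 mice with both muscles, the soleus exceeded the EDL by 0.52 and 0.08 in high-active mice 225 and 227 and by 0.16 and 0.29 in low-active mice 194 and 195.

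**Figure D2:**
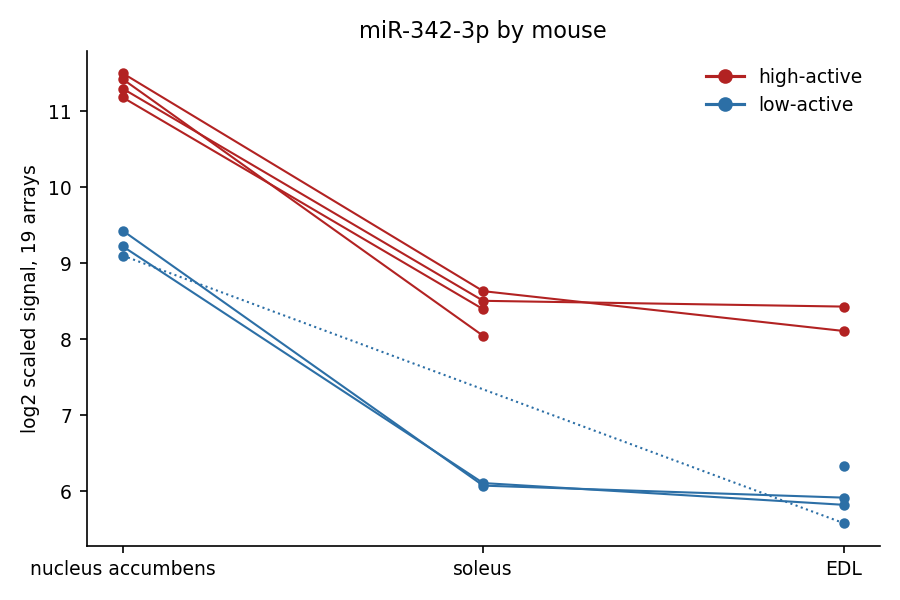
Log2 signal of miR-342-3p in each tissue, 19 arrays scaled together, with a line for each mouse; the dotted line joins the nucleus accumbens and EDL of a mouse with no soleus array, and the lone point is mouse 196. Each mouse is higher in the nucleus accumbens than in its muscles, and the lines of the strains stay apart.

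The deviation of a mouse from its strain can also be set side by side across tissues. Deviations from the mean of strain and tissue lay on the same side in the nucleus accumbens and soleus for 5 of 6 mice, in the nucleus accumbens and EDL for 2 of 5 and in the soleus and EDL for 2 of 4. In the low-active soleus and high-active EDL, with 2 arrays each, the deviations are equal and opposite by construction, so these counts are partly fixed and nothing is read from them. High-active mouse 225 deviated by 0.25 in the nucleus accumbens, 0.16 in the soleus and -0.12 in the EDL. Low-active mouse 194 deviated by 0.11, 0.06 and -0.13 in the same tissues. No deviation exceeded 0.36 in size, far less than the difference between strains.

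miR-342-5p was detected on the 4 arrays of the high-active nucleus accumbens and on no other array. Its brightest probe, A_54_P2570, had a mean spot intensity of 179, 122, 110 and 113 in high-active mice 223, 224, 225 and 227, against 3.51, 1.82 and 6.54 in low-active mice 194, 195 and 197, where none of its 10 spots was well above background. In the soleus it read 5.33, 10.3, 7.30 and 6.82 in high-active mice, against -1.18 and 0.15 in low-active mice. In the EDL it read 7.80 and 4.96 in high-active mice, against -1.26, -0.20, -1.03 and 0.16 in low-active mice. The lowest signal of any detected probe was 18.5 to 28.4 on these arrays, so the muscle values and those of the low-active nucleus accumbens have no level above background. Below that limit the high-active readings still lay above the low-active ones in both muscles, and nothing is read from this.

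The other probes of the 5p arm were dimmer. On the high-active nucleus accumbens arrays A_54_P2569 read 77.5, 52.5, 48.3 and 55.6 and was detected on each, A_54_P2568 read 18.7, 11.7, 3.84 and 9.30 and A_54_P2567 read -0.60, -2.11, -0.97 and -2.22 in mice 223, 224, 225 and 227, both without a spot well above background. The 4 probes kept the same order on 4 of 4 arrays. 2 of 4 probes thus carried the arm.

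**Figure D3:**
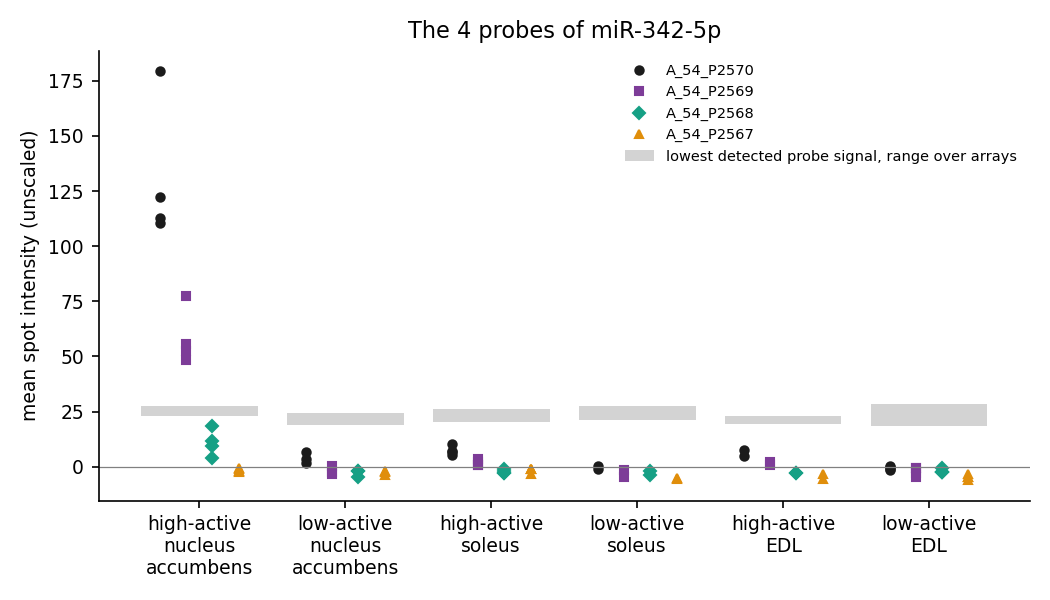
Mean spot intensity, unscaled and linear, of the 4 probes of miR-342-5p on each array, with the range of the lowest detected probe signal in grey. 2 probes rise above the grey band in the high-active nucleus accumbens, at 48.3 to 179, and no probe does so in any other group.

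After scaling, the log2 signal of miR-342-5p in the high-active nucleus accumbens was 6.84 ± 0.11 (SD, n = 4). The low-active arrays stood at the floor of 4.60, the median of the lowest detected signal, so the strains give a lower bound in place of a fold. Taken against that limit, the high-active level of miR-342-5p was higher by a factor of at least 4.38 (2.13 on the log2 scale), using for each low-active array the lowest signal of a detected probe, or the floor where that was higher. This bound is no larger than the 4.39-fold difference of the 3p arm, and it is set by the background of the array. It is that of the brightest probe, A_54_P2570. For the other detected probe, A_54_P2569, the log2 difference from the low-active arrays at the floor was 1.08. Under other settings for the 5p probes the log2 difference ranged over 0.67 to 4.83, and it was 8.01 in the authors' table. In the soleus and EDL neither strain was above background and no strain difference was computed.

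Between tissues the 5p arm gave bounds in high-active mice only. In high-active mice its nucleus accumbens level exceeded the limit of the soleus by a factor of at least 3.58 and that of the EDL by at least 3.75. Averaged over both strains with undetected arrays at the floor, the log2 difference was 1.11 against each muscle. miR-342-5p met the detection minimum of this comparison through the high-active nucleus accumbens alone, the other 5 of 6 groups standing at the floor with no spread, so a difference was fixed by construction and no p is given.

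The 3p arm gave the higher reading on every array where both arms were detected, all of them from the high-active nucleus accumbens. Within the high-active nucleus accumbens the ratio of the brightest 3p probe to the brightest 5p probe was 24.8, 25.3, 30.5 and 25.6 in mice 223, 224, 225 and 227, with a geometric mean of 26.5 (4.73 ± 0.14 on the log2 scale, SD, n = 4). The ratio compares probes of different sequence, whose brightness per molecule is unknown, so it is a ratio of readings and not of molecules. With the other detected probes it ranged over 21.6 to 69.8, more than between mice.

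On the low-active nucleus accumbens arrays the ratio was at least 30.8, 23.8 and 30.4 in mice 194, 195 and 197. At the high-active ratio of 26.5, their 3p signal would go with 5p readings of 28.6, 17.0 and 23.2, where 3.51, 1.82 and 6.54 were read. The lowest detected signals on these arrays were 24.6, 19.0 and 20.25. The expected values thus lay near the detection limit, and no strain difference in the arm ratio is read from them. Probes with no spot above background on the same arrays had a 95th percentile of 11.8, 8.37 and 9.05, so the 3 readings lay within the range of unlit probes and below the level set by the high-active ratio. In the high-active soleus that ratio would give 6.26, 13.4, 12.5 and 11.8 where 5.33, 10.3, 7.30 and 6.82 were read, both below the detection limit of 20.2 to 26.4. No tissue other than the nucleus accumbens had both arms above background, so the arm ratio could not be compared between tissues.

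**Figure D4:**
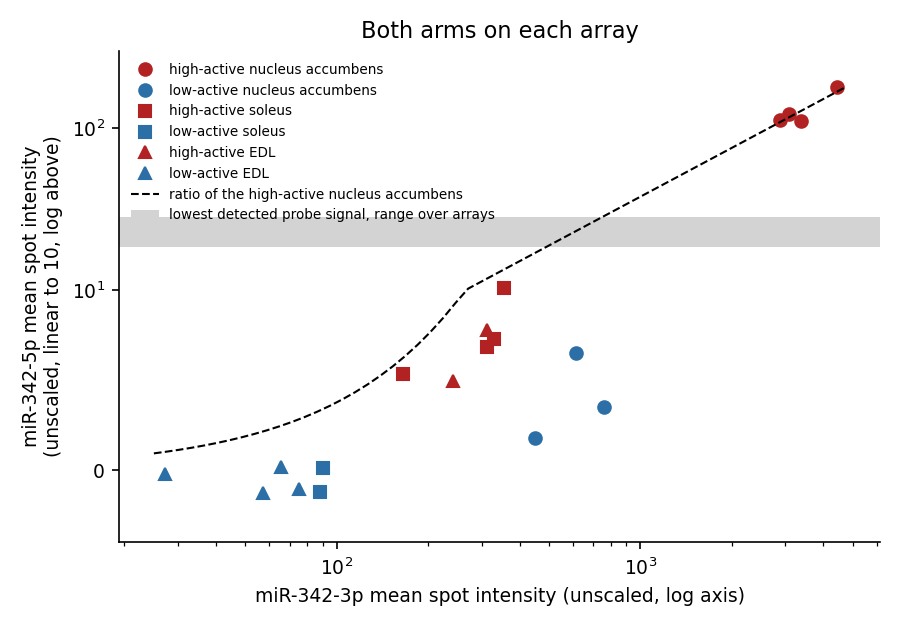
Mean spot intensity of miR-342-5p against that of miR-342-3p on each of 19 arrays (unscaled; log horizontal axis, vertical axis linear to 10 and log above), with the ratio of 26.5 as a dashed line and the range of the lowest detected probe signal in grey. The high-active nucleus accumbens lies at a 5p intensity of 110 to 179 above the grey band, and the 3 low-active nucleus accumbens arrays lie below both the band and the line.

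The scanner software also wrote 1 signal per miRNA, and for miR-342-5p that number was mostly the 3p arm. On the 4 high-active nucleus accumbens arrays it gave miR-342-5p a signal of 3179, 2214, 2336 and 2010 in mice 223, 224, 225 and 227, where it gave miR-342-3p 3128, 2181, 2307 and 1979. The totals of the 2 detected 5p probes came to 48.3, 32.8, 29.5 and 30.7. On 3 arrays the signal of the 3p arm and these 2 totals add up to the signal given for the 5p arm within 0.01, and on that of mouse 223 the remainder of 3.51 equals the total of the 5p probe A_54_P2568. The 3p arm thus made up 98.4% to 98.7% of the signal written for the 5p arm. On the other 15 arrays miR-342-5p was marked not detected and written as 0.1.

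**Figure D5:**
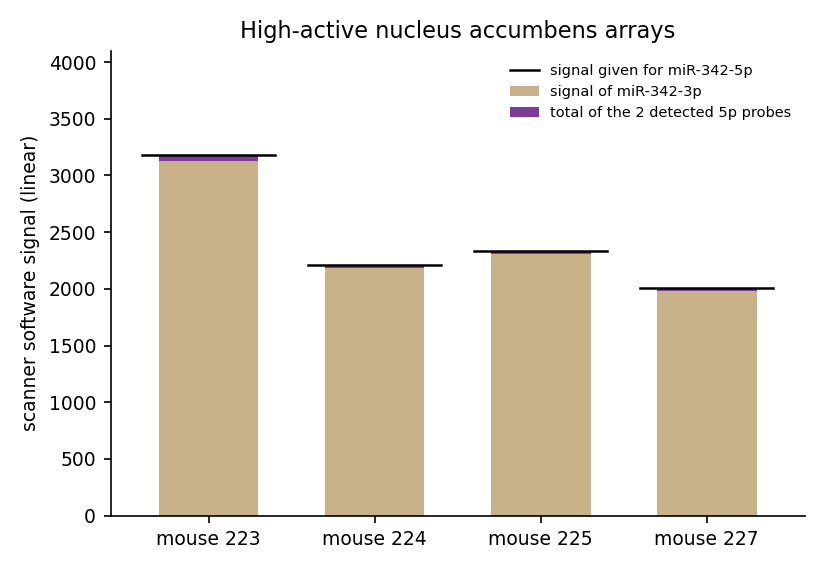
Scanner software signal (linear, bars from 0) on the 4 high-active nucleus accumbens arrays: the signal of miR-342-3p, the total of the 2 detected miR-342-5p probes stacked on it, and the signal given for miR-342-5p as a black line. The line at 2010 to 3179 sits at the top of each stack.

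The log2 table that the authors deposited for the whole series did not carry this sum. Its 5p values in the high-active nucleus accumbens followed the total of the detected 5p probes, both taken relative to the 3p arm, with an SD of 0.05 on the log2 scale. Its high-active minus low-active difference in the nucleus accumbens was 8.01 for miR-342-5p. Set on the same scale, its 5p values on the 3 low-active arrays stand for a total of 0.0983 each, while the software's own entry for an undetected miRNA is 0.1. They differ from the table's entry for blank spots by the same -8.18 on all 3 arrays. In the soleus and EDL the table's miR-342-5p values equal its blank values on every array. The spot intensities give a lower bound of 2.13 for the same difference, and they set no upper limit on it. The paper also measured the same arm by qRT-PCR in the nucleus accumbens. It reported a higher level in high-active mice there, by more than this bound. That assay took in mice of both sexes and used miR-99b-5p as reference, so its samples and scaling are unlike those of the arrays. It is separate from the array values and was not tested here.

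The miRNAs whose signal ran most like miR-342-3p over 19 arrays, by Pearson's r, were miR-376c-3p (0.90), miR-3102-3p (0.88), miR-194-5p (0.88), miR-98-5p (0.87) and miR-204-5p (0.86). These arrays share strain and tissue, so r is a description. All 5 were higher in the nucleus accumbens than in either muscle. After each tissue's mean was subtracted, the leading miRNAs were miR-376c-3p (0.86), miR-30c-5p (0.84), miR-30a-3p (0.83), miR-322-5p (0.80) and miR-30c-2-3p (0.79), among them 3 products of miR-30 genes. Over the 7 nucleus accumbens arrays miR-342-5p ran most like miR-376c-3p (0.99), miR-338-3p (0.93), an oligodendrocyte miRNA, miR-27b-3p (0.92), miR-30b-5p (0.88) and miR-30c-5p (0.87), and its r with miR-342-3p was 0.99. The 3 low-active values of miR-342-5p are the same floor, so these r restate the split between strains on which the miRNA was chosen.

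miR-376c-3p, which led each of these orders, differs from miR-342-3p in muscle. Its log2 signal in the nucleus accumbens was 8.30 ± 0.10 in high-active mice (SD, n = 4) and 6.85 ± 0.06 in low-active mice (SD, n = 3), a difference of 1.44 ± 0.11 (SE, adjusted p = 0.000217 from limma). It was higher in high-active mice by 0.39 ± 0.18 in the soleus (adjusted p = 0.313) and by 0.92 ± 0.18 in the EDL (adjusted p = 0.137). miR-376c-3p was higher in the nucleus accumbens than in the soleus by 1.61 ± 0.09 and than in the EDL by 1.08 ± 0.09, and it was lower in the soleus than in the EDL (-0.53 ± 0.10, adjusted p = 0.00107 from limma).

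Mir376c and Mir342 are on the same chromosome. By the reference table, 61 other miRNA genes lie within 1.5 Mb of Mir342 on chromosome 12, all downstream of it, at 178 to 1089 kb, and most belong to the imprinted Dlk1-Dio3 cluster, whose maternal copy expresses many brain miRNAs. Their products on the array number 113. In the nucleus accumbens 61 of these were tested, and 1 was higher and 2 were lower in high-active mice, where 27 of 391 miRNAs (6.91%) passed in all (at an unadjusted p under 0.05, 15 of the 61 and 77 of the 391), with a median difference of -0.12, against -0.11 over all 391 miRNAs tested. The higher one was miR-376c-3p, whose gene lies 1064 kb from Mir342. The lower ones were miR-134-5p (-0.65 ± 0.14, adjusted p = 0.039), a miRNA of neuronal dendrites, and miR-770-3p (-0.72 ± 0.15, adjusted p = 0.033). In the soleus 32 and in the EDL 37 were tested by limma and none passed (4 and 3 at an unadjusted p under 0.05, where 55 of 342 and 24 of 330 miRNAs did so in all), and their medians were 0.07 and 0.13, against -0.02 and 0.02 over all miRNAs tested. Mir345 is the nearest gene, and miR-345-5p was higher in high-active mice by 0.11 ± 0.13, 0.19 ± 0.15 and 0.04 ± 0.23 in the nucleus accumbens, soleus and EDL, with adjusted p of 0.629, 0.576 and 0.958.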

How the data were processed

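Total RNA of single tissues was labelled with Cy3 and hybridised to single-colour Agilent mouse miRNA arrays. The deposited scanner files hold spot intensity, background-subtracted by the authors' Feature Extraction 10.7.1.1 software and not normalized between arrays. The deposited table of the series holds log2 values that the authors shifted by a percentile per array; its centring is unknown, and it was used as an alternative. Control and outlier spots were left out, and the remaining spots of a probe were averaged. Detection required that over 0.5 of a probe's spots be flagged well above background by the software. Arrays were scaled to the 75th percentile of the probes detected on all of them, within a tissue (594, 456 and 417 probes) or over 19 arrays (328), floored at the median of the lowest detected signal, and taken to log2. A miRNA took its probe with the highest mean. Between strains, miRNAs detected on at least 3 (nucleus accumbens), 2 (soleus) or 2 (EDL) arrays were tested, and between tissues those detected on at least 2 of 19, with limma 3.58.1 in R 4.3.3 (lmFit, eBayes, Benjamini-Hochberg). miRNAs at the floor on every array counted as not changed and took no part in the fit. Only the limma fits were tried on simulated log2 values. Scaling, floor, detection and choice of probe were not tested in that way. Precision is limited by how many arrays there are.

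Members, lists and tests were chosen with earlier results of these data known. Named miRNAs are both arms, the 5 most like each, those without overlap of strains in 1 direction in all 3 tissues, neighbouring miRNAs past a test, and markers. After values were seen, Mir345 was added as the nearest neighbour. Among markers, miR-150-5p, miR-223-3p, miR-155-5p, miR-146a-5p, miR-142-3p, miR-219-2-3p, miR-219-5p, miR-208b-3p and miR-499-5p were also added after values were seen. Product names were matched to neighbouring genes by name, the genome build of the array files being another than that of the reference. Sample titles carry a mouse number, and 1 number in several tissues was read as 1 mouse; within a tissue each mouse gave 1 array. Alternatives were other scalings, background, floor, averaging and probe rules, slide and mouse blocks, and leaving out each array. The normexp alternative used the median in place of the mean spot signal.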

Additional observations from a re-analysis of the deposited data

Results flagged for a closer look

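Of 34 groups of 4 arrays with every array above background, among both arms and the miRNAs most like them, 1 held an array far from the rest. In the high-active nucleus accumbens miR-342-5p had log2 signals of 6.68 in mouse 224 and 6.88 to 6.90 in the other 3 mice, so the gap below was 0.917 of the group's whole range, above Dixon's 95% critical value. Chance flags about 1 in 20 such groups, and the group's whole range is small beside the bound on the strain difference.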

How the results depend on the processing

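No result changed direction past its threshold: of 401 values under alternatives, 338 kept their call or stayed within 1 SD, or for counts within 1.5 times, and 0 were reversed; the rest follow, and why they moved was not tested. The strain difference of miR-342-3p was 2.36 with the percentile over all probes, 2.52 without scaling and 2.32 within slide 2 in the nucleus accumbens. In the soleus it was 2.61 with all probes, 1.65 without scaling, 1.62 with normexp background correction and 2.58 within slide 1, and in the EDL 1.26 with normexp. For miR-342-5p, whose low-active arrays are at background, it was 0.67 with normexp, 0.83 with the mean log2 of all probes, 2.34 with quantile normalization, 2.36 with all probes, 2.37 with outlier spots kept, 2.44 without scaling, 4.58 with the sum of probes, 4.83 with a floor of 1, 8.01 in the authors' table and 8.71 with the software's signal, whose high-active values are mostly the 3p arm. In muscle neither an arm ratio nor a 5p strain difference was computed under any setting.

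Strain calls in the nucleus accumbens numbered 4 without scaling, 10 with normexp, 13 with the software's signal, 13 with slide as a block, 14 without the detection filter and 16 with quantile normalization, against 27. In the soleus they were 1 with all probes, 1 with normexp, 1 with slide as a block, 2 without the filter, 2 with mean log2, 8 with the sum, 18 with the software's signal and 52 without scaling, against 4. In the EDL they were 0 with normexp (6 at an unadjusted p under 0.05, limma), 2 without scaling (both lower in high-active mice, so miR-342-3p did not pass), 2 with quantile normalization, 2 with a floor of 1, 2 with slide as a block, 3 with all probes, 4 with the software's signal and 10 with the sum, against 1.

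Between tissues, the 5p difference from the EDL, for which no p is given, was 0.20 with normexp. Between soleus and EDL 33 miRNAs passed with normexp, against 78. The 3p difference between soleus and EDL ran over -0.03 (normexp) to 0.39 and passed no test. With mouse as a random block (the replicate block, in place of pairing by number; consensus correlation 0.0937), 3p differences were 3.07, 3.23 and 0.16 with adjusted p of 8.07e-13, 4.66e-13 and 0.587, and no call changed. The log2 arm ratio was 4.52, 5.68 and 5.89 with other probes.

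Leaving out each array, strain calls ranged over 14 to 31 in the nucleus accumbens (14 and 17 and 17 without high-active mice 223, 224 and 227, 15 and 14 without low-active mice 194 and 195), 0 to 6 in the soleus and 0 to 4 in the EDL. None passed in the soleus without low-active mouse 195 (36 at an unadjusted p under 0.05, limma), against 2, 2 and 1 without high-active mice 224, 225 and 227. In the EDL none passed without high-active mouse 225 (8 unadjusted) or 227 (15) or low-active mouse 194 (19), and 4 passed without low-active mouse 195. The strain difference of 3p ranged over 2.05 to 2.21, 2.24 to 2.43 and 2.17 to 2.46 in nucleus accumbens, soleus and EDL, and that of 5p over 2.23 to 2.40. Tissue calls ranged over 357 to 396, 345 to 382 and 55 to 128 (128 without low-active EDL mouse 195), 3p over 3.01 to 3.10, 3.06 to 3.28 and 0.03 to 0.22, 5p over 1.07 to 1.11 against each muscle and the arm ratio over 4.66 to 4.76.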
